A study of Mus musculus with 9 samples.

Results

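The 10 genes described here mark excitatory relay neurons of the adult thalamus, and their RNA was measured in brain samples of 9 mice. The genes were chosen by name, and all 10 were found among the 38621 genes of the deposited file. They were Prkcd, Rora, Plekhg1, Tnnt1, Ramp3, Rgs16, Slc17a6, Gbx2, Zic1, and Calb2. All 10 passed the filter on low values that left 29025 genes for testing, 0.1 RPKM or more in 3 or more mice. RPKM is the read number of a gene divided by the length of its exons and by the total reads of the sample. This adjusts for exon length and read depth only, and not for other differences between samples.

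The 9 C57BL/6 mice formed 3 groups of 3. The sham mice are called untreated in the sample labels and saline-injected in the description of the study. The ICH (intracerebral hemorrhage) mice received autologous whole blood through a needle placed in the brain, and the feb mice received febuxostat, a xanthine oxidase inhibitor, by daily gavage before the same blood injection. All mice were male according to the study, and their age is not given in the sources used here. The labels name brain as the tissue, and neither the dissected region nor the time of collection is given there for the sequenced samples. Between 23065757 and 29538009 reads per mouse were counted on genes. Snap25, a synaptic protein of all neurons, lay between 196 and 272 RPKM in every mouse.

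The thalamus lies behind and medial to the striatum and passes sensory and motor signals to the cortex. Its relay neurons are excitatory, use glutamate, and keep into adulthood the transcription factors that specified them. None of the 10 genes is confined to the thalamus. Slc17a6 is shared with other subcortical excitatory neurons, Calb2 with many interneurons, Prkcd with the central amygdala, Rora with the cerebellum and cortex, Zic1 with the septum, cerebellum, and meninges, and Plekhg1 with blood vessels. The comparisons asked how the 10 genes differed between the groups and between mice. In bulk RNA, fewer cells of a type and less RNA per cell cannot be told apart.

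Promoter sequences are shown for the gene with the widest and the gene with the narrowest range among the mice, Tnnt1 and Rora. Both are RefSeq sequences of GRCm38.p6 and run from 250 bases before to 50 bases after the annotated start, 5′ to 3′ on the strand of the gene. Capitals mark the letters TATAAA, the core of a TATA box, and all other letters are in lower case.
Tnnt1 (minus strand, chr7:4515926-4516225): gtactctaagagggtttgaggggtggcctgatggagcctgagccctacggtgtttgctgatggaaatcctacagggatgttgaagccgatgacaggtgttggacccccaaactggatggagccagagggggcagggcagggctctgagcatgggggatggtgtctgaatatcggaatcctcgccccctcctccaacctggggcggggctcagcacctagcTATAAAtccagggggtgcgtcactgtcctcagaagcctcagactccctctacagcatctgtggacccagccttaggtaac
Rora (plus strand, chr9:68653536-68653835): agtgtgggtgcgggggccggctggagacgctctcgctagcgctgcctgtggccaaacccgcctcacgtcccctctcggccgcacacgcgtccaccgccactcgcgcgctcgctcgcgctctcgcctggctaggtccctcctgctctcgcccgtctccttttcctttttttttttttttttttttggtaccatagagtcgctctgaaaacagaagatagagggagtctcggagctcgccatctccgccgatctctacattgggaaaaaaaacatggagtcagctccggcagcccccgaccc
The Tnnt1 promoter held TATAAA with its first base at position -30 from the start, and the Rora promoter held no match. RefSeq promoters were found for 9 of the 10 genes, 11 sequences in all, and both strands of each were searched. TATAAA or its reverse complement was present in 2 of the 11, against 13.6% of all 32851 promoters of the same length. The second was a promoter of Prkcd, with its first base at position -244. AGGTCA, the core hexamer bound by nuclear receptors such as Rora, was present in 0 of the 11 and in 16.3% of all promoters. CTTTGAT, the core site of TCF/LEF factors, was present in 0 of the 11 and in 3.73% of all promoters.

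The 10 genes varied widely between mice of the same group. ICH mouse 2 had the lowest value of all 9 mice in each of the 10 genes. ICH mouse 1 and feb mouse 3 were among the lowest 3 mice in 9 genes each. At the other end, sham mouse 3 was among the highest 3 mice in all 10 genes and was the highest in 6, while feb mice 1 and 2 were the highest in 2 genes each. The order of the mice therefore cut across the groups, with a low mouse in the feb group and a high mouse, ICH mouse 3, in the ICH group.

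**Figure D1:**
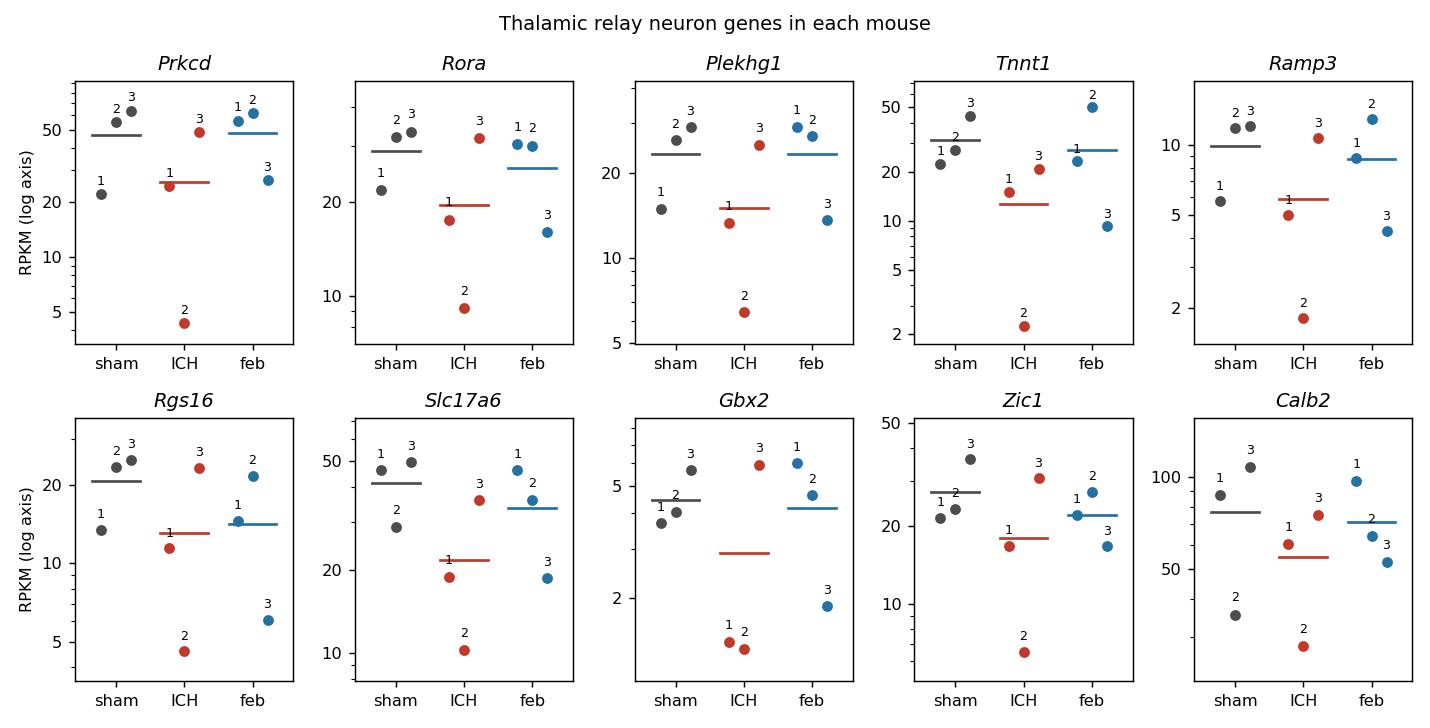
RPKM (log axis) of each of the 10 thalamic genes in each of the 9 mice. Points are mice, numbered by replicate, and horizontal lines are group means; ICH mouse 2 is the lowest point in every panel.

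Prkcd encodes protein kinase C delta, a signaling kinase that is abundant in sensory relay nuclei. It is located on chromosome 14, 30595356 to 30626210 in GRCm38, on the minus strand. For Prkcd, sham animals gave 22.2, 55.1, and 63.8 RPKM, ICH animals 24.5, 4.36, and 48.6, and feb animals 56.2, 61.9, and 26.7. The highest mouse had 14.6 times the level of the lowest, and each group held both high and low mice. The groups overlapped in all comparisons. Group means were 47.0 ± 21.95 RPKM (SD, n = 3) for sham, 25.8 ± 22.2 for ICH, and 48.2 ± 18.9 for feb.

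Tnnt1 encodes the slow skeletal muscle form of troponin T, which in brain marks principal sensory relay nuclei. It is located on chromosome 7, 4504570 to 4516382, on the minus strand. For Tnnt1, levels were 22.4, 27.3, and 44.3 RPKM without hemorrhage (sham), 15.0, 2.26, and 20.8 after ICH, and 23.1, 49.8, and 9.21 after febuxostat and ICH. This was the widest range of the 10 genes, 22-fold. It was also the only one of the 10 in which all ICH mice lay below all sham mice (p = 0.1 by an exact two-sided permutation of the labels, as small as 3 against 3 can reach). Of all genes tested, 19.4% did not overlap between ICH and sham mice, in either direction. The feb mice ran from below the ICH mean of 12.7 ± 9.51 to above the sham mean of 31.3 ± 11.5 (SD, n = 3 each).

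Among the signaling genes, Ramp3 encodes a protein that changes the ligand choice of calcitonin-family receptors, and Rgs16 a protein that shortens G protein signaling. In the case of Ramp3, the sham mice measured 5.77, 11.9, and 12.1 RPKM, the ICH mice 5.03, 1.82, and 10.8, and the feb mice 8.81, 13.0, and 4.30. In the case of Rgs16, sham animals gave 13.4, 23.5, and 25.0 RPKM, ICH animals 11.4, 4.60, and 23.3, and feb animals 14.6, 21.7, and 6.08. ICH mouse 3 lay within the sham range in both genes, and feb mouse 3 lay below every sham mouse. Plekhg1 encodes a guanine nucleotide exchange factor, and levels were 14.9, 26.1, and 29.0 RPKM without hemorrhage (sham), 13.3, 6.43, and 25.2 after ICH, and 29.1, 27.0, and 13.6 after febuxostat and ICH. In Plekhg1 the means of the sham and feb mice were 23.3 ± 7.44 and 23.2 ± 8.44 RPKM (SD, n = 3 each).

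Slc17a6 encodes the glutamate transporter that loads synaptic vesicles in subcortical excitatory neurons. It is located on chromosome 7, 51622006 to 51671119, on the plus strand. For Slc17a6, the sham mice measured 46.2, 28.8, and 49.5 RPKM, the ICH mice 18.9, 10.3, and 35.9, and the feb mice 46.3, 36.1, and 18.7. The groups overlapped only through ICH mouse 3 and sham mouse 2 when ICH and sham were compared. Its counterpart Slc17a7, the vesicular transporter of cortical and hippocampal neurons, served as a comparison: sham animals gave 18.5, 17.9, and 11.9 RPKM, ICH animals 45.2, 66.2, and 32.6, and feb animals 19.0, 30.2, and 30.7. Within a mouse, the ratio of Slc17a6 to Slc17a7 ranged 26.9-fold, from 0.155 in ICH mouse 2 to 4.17 in sham mouse 3. This ratio was above 1 in 6 mice, all sham mice included, and below 1 in ICH mice 1 and 2 and feb mouse 3. The same mice were low in most thalamic genes, and because Slc17a6 is itself 1 of the 10, this match is partly built in.

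The 3 transcription factors are Rora, a nuclear receptor of sensory relay neurons, Gbx2, a homeobox factor required for thalamic development, and Zic1, a zinc finger factor of medial thalamic nuclei. For Rora, levels were 21.8, 32.1, and 33.4 RPKM without hemorrhage (sham), 17.6, 9.14, and 31.8 after ICH, and 30.5, 30.2, and 16.0 after febuxostat and ICH. It had the narrowest range of the 10 genes, 3.66-fold, and the most reads, 3142 to 12290 per mouse. Gbx2 was the least abundant of the 10 per length, at 75 to 348 reads, and the sham mice measured 3.69, 4.04, and 5.69 RPKM, the ICH mice 1.41, 1.33, and 5.93, and the feb mice 6.00, 4.64, and 1.87. Here ICH mouse 3 was above all sham mice while the other ICH mice were below all of them. For Zic1, sham animals gave 21.6, 23.3, and 36.3 RPKM, ICH animals 16.8, 6.53, and 30.6, and feb animals 22.1, 27.2, and 16.7.

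Calb2 encodes calretinin, a calcium-binding protein of midline thalamic neurons and of many interneurons. Its group means were the highest of the 10, and levels were 87.3, 35.5, and 108 RPKM without hemorrhage (sham), 60.4, 28.0, and 75.2 after ICH, and 96.7, 63.9, and 52.7 after febuxostat and ICH. It differed from the other genes in sham mouse 2, which ranked second lowest for Calb2 but was among the highest 3 mice for 4 other genes. Sham mouse 1 showed the opposite, with high Calb2 and Slc17a6 and low Prkcd. The ratio of Calb2 to Prkcd within a mouse ran from 0.644 in sham mouse 2 to 6.43 in ICH mouse 2, a 9.98-fold range, so the 10 genes did not keep fixed proportions.

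The remaining genes are located, in GRCm38, with Rora on chromosome 9 (68653786 to 69388246, plus strand), Plekhg1 on chromosome 10 (3740364 to 3967303, plus strand), Ramp3 on chromosome 11 (6658521 to 6677475, plus strand), Rgs16 on chromosome 1 (153740349 to 153745468, plus strand), Gbx2 on chromosome 1 (89927956 to 89931179, minus strand), Zic1 on chromosome 9 (91358058 to 91365810, minus strand), and Calb2 on chromosome 8 (110137502 to 110168210, minus strand). All 10 are protein-coding. Some exons of the 10 genes are shared with genes on the other strand. The opposite-strand gene D130058E05Rik covers 43.5% of the exon bases of Gbx2, Gm28513 covers 10.1% of those of Rgs16, and Gm11978 covers 7.32% of those of Ramp3. Overlaps for Zic1 (with Zic4) and Rora (with Gm15511) were 1.05% and 0.627%. The library kit keeps strand, but whether strand was used in counting is not given in the sources used here, so values of Gbx2 in particular may include reads of the other gene.

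Differences between the groups were tested with limma over all 29025 genes, with an adjusted p from the Benjamini-Hochberg method. A gene was called by the criteria of the study, an unadjusted p under 0.05 and a fold change over 2. Fold changes are differences of mean log2(RPKM + 0.1), and the ICH mice enter the first 2 comparisons with opposite sign, so these are not independent.

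Between ICH and sham, all 10 genes had a lower mean in ICH mice, and 0 of 10 were called, against 2.53% of all genes tested. An unadjusted p under 0.05 was reached by 0 of 10 genes, against 12.3% of all genes. By voom, a limma method for read counts applied to the reads recovered from RPKM, 2 of 10 were called, Tnnt1 and Slc17a6, against 3.2% of all genes. The log2 fold changes ran from -1.73 for Tnnt1 (standard error 0.85, 95% interval -3.67 to 0.20, adjusted p = 0.429) to -0.46 for Calb2 (standard error 0.48, interval -1.56 to 0.64, adjusted p = 0.686). Slc17a6 had the lowest adjusted p, 0.408, at a log2 fold change of -1.08 (standard error 0.48, interval -2.16 to 0.01). The median over the 10 genes was -0.91, beside 0.08 over all genes tested. ICH and sham mice did not overlap in 1 of 10 genes, against 19.4% of all genes.

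The count depended on ICH mouse 3. Without it, 9 of 10 genes were called lower in ICH than in sham mice, against 3.68% of all genes, with a median log2 fold change of -1.49, and the gene not called was Calb2. Without ICH mouse 2, the mouse with the lowest values, 0 of 10 were called and the median was -0.30. Without sham mouse 2, 1 of 10 was called, Slc17a6, against 4.48% of all genes. In the full comparison, no change and a 2-fold decrease both lay within the interval of each of the 10 genes.

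Between feb and ICH, all 10 genes had a higher mean in feb mice and 0 of 10 were called, against 2.43% of all genes tested. The count at an unadjusted p under 0.05 was again 0 of 10, against 11.1%, and no gene was called by voom. Prkcd had the largest difference, 1.38 on the log2 scale (standard error 0.82, interval -0.49 to 3.24, adjusted p = 0.553). Tnnt1 differed by 1.28 (standard error 0.85, interval -0.65 to 3.22, adjusted p = 0.595). The smallest difference was that of Rgs16, 0.21 (standard error 0.62, interval -1.20 to 1.63, adjusted p = 0.921). The median was 0.72, beside -0.01 over all genes, and the groups overlapped in all 10 genes, where 17.2% of all genes showed no overlap. Without ICH mouse 3, 6 of 10 were called higher in feb mice, against 3.21% of all genes, and without ICH mouse 2 the median was 0.18 with 0 of 10 called.

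Between feb and sham, 0 of 10 genes were called, against 2.2% of all genes, and 0 of 10 had an unadjusted p under 0.05, against 8.54%. No gene was called by voom. The median log2 fold change was -0.23, beside 0.05 over all genes, and ranged from -0.67 for Rgs16 (standard error 0.62, interval -2.09 to 0.74, adjusted p = 0.769) to 0.08 for Prkcd (standard error 0.82, interval -1.78 to 1.95, adjusted p = 0.986). The direction for Prkcd turned with scaling to equal medians (-0.0268). The groups overlapped in all 10 genes, where 12.7% of all genes did not overlap. The intervals reached a 2-fold change in at least 1 direction in each gene, so similar means do not show equal levels.

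**Figure D2:**
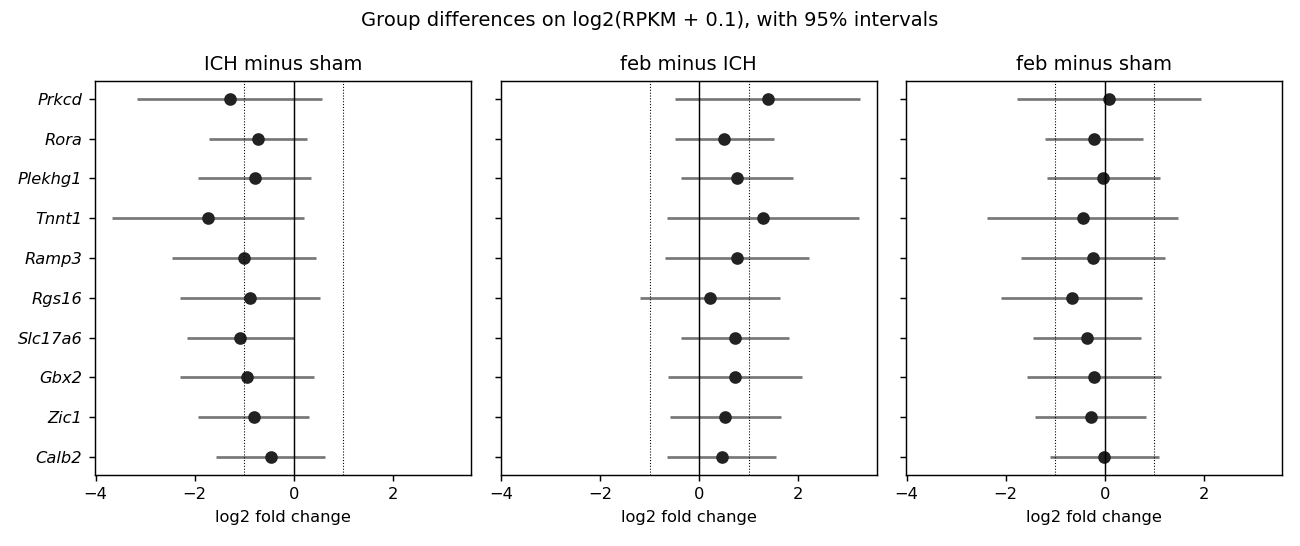
Log2 fold changes of the 10 genes in the 3 comparisons, with 95% intervals from limma as bars and dotted lines at a 2-fold change. The points for ICH minus sham lie between -1.73 and -0.46, those for feb minus ICH between 0.21 and 1.38, and those for feb minus sham between -0.67 and 0.08.

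The spread between mice of the same group was large for these genes. The SD within groups, on the log2 scale, had a median of 0.79 over the 10 genes and ran from 0.63 in Rora to 1.24 in Tnnt1. The median over the 17661 genes with a mean RPKM of at least 1 was 0.19, and 8 of the 10 genes lay above the 95th percentile of those genes (0.70). Differences between the group means held 25.3% of the sum of squares in the median thalamic gene, from 12.4% in Calb2 to 38.4% in Slc17a6, beside 35.8% in the median of those 17661 genes. The lowest read count behind any of these values was 66, for Ramp3 in ICH mouse 2.

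**Figure D3:**
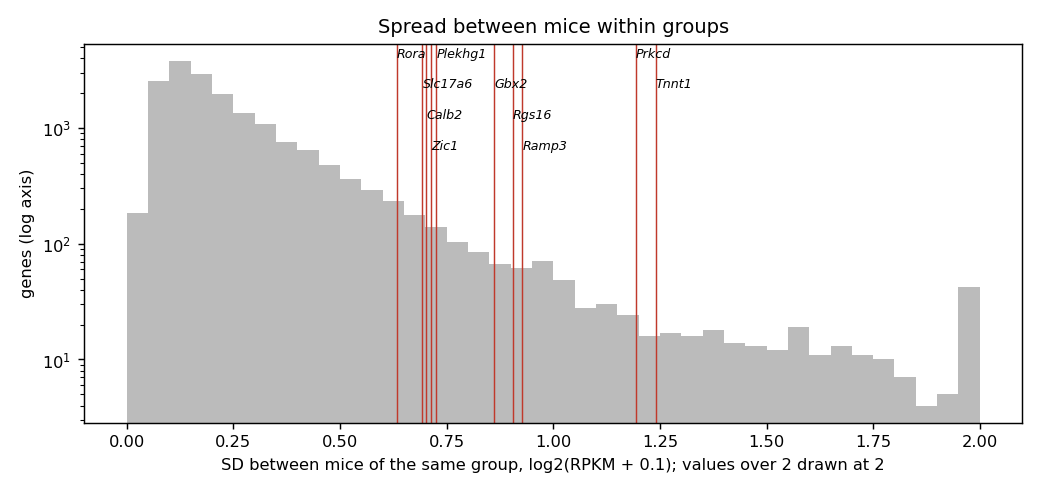
Histogram (log axis) of the SD between mice of the same group for the 17661 genes with a mean RPKM of at least 1, on the log2(RPKM + 0.1) scale. Red lines mark the 10 thalamic genes, which lie between 0.63 and 1.24, to the right of the bulk of genes at a median of 0.19.

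The genes varied together. Over the 9 mice, the 45 pairs of genes had a median Pearson r of 0.90 on the log2 scale, from 0.53 for Rgs16 with Calb2 to 0.99 for Rora with Plekhg1, and a median Spearman rho of 0.78. Pearson r was above 0.8 in 36 of the 45 pairs, and Spearman rho in 16. After the mean of its group was removed from each mouse, the median Pearson r was 0.88, so the shared variation was present within groups. These values include ICH mouse 2, the lowest mouse in each gene, and were not computed without it. Calb2 stood somewhat apart, with a median r of 0.62 over its 9 pairs and 0.91 over the 36 pairs without it. Its closest partner was Slc17a6 (Pearson r 0.84, Spearman rho 0.93). All values in a mouse come from the same library, and these correlations are given as descriptions without a test.

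A list of 12 other genes of thalamic neurons gave nearly the same order of mice. The list comprised Tcf7l2, Lef1, Ntng1, Synpo2, Lhx9, Slitrk6, Cacna1g, Necab1, Cdh6, Vamp1, Adarb1, and Plcb4. Its mean log2 value correlated with that of the 10 genes at a Pearson r of 0.97 and a Spearman rho of 0.95 over the 9 mice, and at a Pearson r of 0.93 without ICH mouse 2 and feb mouse 3, the mice farthest from the median. Between ICH and sham, 2 of the 12 were called lower. Tcf7l2, a TCF/LEF transcription factor of thalamic neurons, was 36.9, 23.1, and 39.2 RPKM in sham and 9.69, 5.39, and 22.05 in ICH animals (log2 fold change -1.61, standard error 0.61, adjusted p = 0.382). Vamp1, a synaptic vesicle protein of fast-firing neurons, was 15.1, 5.51, and 8.70 RPKM in sham and 4.17, 3.12, and 4.89 in ICH animals (log2 fold change -1.15, standard error 0.37, adjusted p = 0.347). The median log2 fold changes of the list were -0.90 between ICH and sham, 0.70 between feb and ICH, and -0.22 between feb and sham, and 0 of 12 were called in the last 2 comparisons. Necab1 departed most from the list, with a Pearson r of 0.13 to the mean of the 10 genes. Vamp1 (0.61), Lhx9 (0.68), and Cdh6 (0.71) also followed that mean less closely, while the others had r from 0.91 for Tcf7l2 to 0.99 for Ntng1.

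Among 17651 other genes with a mean RPKM of at least 1, the 5 most like the mean of the 10 genes over the 9 mice were Ntng1, Pakap, Vangl1, Plcb4, and Gm15511. Ntng1 encodes netrin G1, an adhesion protein on the axons of thalamic neurons, and had a Pearson r of 0.99 and a Spearman rho of 0.97. For Ntng1, the sham mice measured 19.9, 27.1, and 33.1 RPKM, the ICH mice 14.5, 7.88, and 29.0, and the feb mice 30.7, 32.2, and 15.5. Plcb4, a phospholipase C of relay neurons, was the fourth in this order, with a Pearson r of 0.98. Ntng1 and Plcb4 are also in the list of 12 thalamic genes. Pakap shares 81.5% of its exon bases with Akap2 on the same strand, and Gm15511 overlaps Rora on the other strand, so their values may share reads.

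The 5 genes with the most opposite pattern were Col4a1, Tvp23a, Sept9, Ppib, and Itga4, with Pearson r from -0.97 to -0.96. Col4a1 is a collagen of vascular basement membranes, and sham animals gave 12.5, 11.2, and 11.5 RPKM, ICH animals 13.7, 17.8, and 11.2, and feb animals 11.2, 10.4, and 14.7. Itga4 is an integrin subunit of leukocytes, and levels were 0.882, 0.942, and 0.827 RPKM without hemorrhage (sham), 1.13, 1.70, and 0.880 after ICH, and 0.940, 0.952, and 1.25 after febuxostat and ICH. In all 5 genes, ICH mouse 2 was the highest mouse. Without ICH mouse 2 and feb mouse 3, Pearson r ran from -0.94 for Tvp23a to -0.78 for Itga4. Spearman rho over all mice ran from -0.95 for Tvp23a to -0.77 for Col4a1. Tvp23a shares 33.8% of its exon bases with Nubp1 and Ppib shares 25.0% with Snx22, both on the other strand. The r values of these 10 genes are extremes of a ranking over 9 mice and are given without a test.

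Marker lists of other regions and cell types were set beside the thalamic genes. Genes of these lists were called by the same criteria, and 0 of them had an adjusted p under 0.05 in any comparison. Markers of cortical excitatory neurons (Slc17a7, Neurod6, Cux2, Rorb, Fezf2, Lamp5, Tbr1, and Emx1) had 5 of 8 called higher in ICH than in sham mice, with a median log2 fold change of 1.46. The other 3 were not called, at -0.14 for Rorb, -0.03 for Cux2, and 0.19 for Lamp5. Their mean log2 value was highest in ICH mouse 2 (3.09) and lowest in sham mouse 3 (1.18), the mice with the lowest and the highest mean of the thalamic genes (2.39 and 4.98), and its Pearson r with that mean was -0.64 (Spearman rho -0.47, Pearson r -0.51 without the 2 farthest mice). Neurod6 (log2 fold change 2.23, standard error 0.88, adjusted p = 0.387), Tbr1 (1.82, standard error 0.42, adjusted p = 0.330), Fezf2 (1.82, standard error 0.53, adjusted p = 0.345), and Slc17a7 (1.54, standard error 0.29, adjusted p = 0.277) rose most, and of these Neurod6 overlapped between the groups (0.925 to 10.3 RPKM in sham, 6.54 to 29.7 in ICH). Between feb and ICH 2 of 8 were called lower, Tbr1 (-1.48) and Emx1 (-1.01), and between feb and sham 2 of 8 were called higher, Neurod6 (2.84) and Fezf2 (1.305). The summed RPKM of the cortical list was 33.8 to 60.5 in sham, 74.5 to 127 in ICH, and 59.1 to 74.9 in feb mice, and their part in the thalamic differences was not tested.

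The striatal list (Drd1, Drd2, Adora2a, Ppp1r1b, Rgs9, Penk, Tac1, Pde10a, and Gpr6) showed another order of mice, with 0 of 9 called in any comparison. Its mean log2 value per mouse was 1.85, 4.74, and 3.21 in sham, 3.64, 4.23, and 4.58 in ICH, and 4.16, 3.13, and 3.86 in feb, and its Pearson r with the thalamic mean was -0.14 (Spearman rho -0.20). Habenular markers (Tac2, Gpr151, Pou4f1, Chrna3, and Chrnb4), from the structure next to the medial thalamus, had 0 of 5 called. Their mean log2 value per mouse was 1.27, -0.48, and 0.80 in sham, -0.90, -0.98, and 0.56 in ICH, and 0.64, -0.50, and -1.01 in feb. It followed the thalamic mean in part (Pearson r 0.62, Spearman rho 0.62, Pearson r 0.37 without ICH mouse 2 and feb mouse 3). Pou4f1 rested on 1 read in ICH mouse 1, 3 in ICH mouse 2, and 1 in feb mouse 3, against 388 in sham mouse 1. Chrnb4 rested on 4 reads in feb mouse 2 and 1 in feb mouse 3, so low values of this mean depend in part on few reads. Tac2, Gpr151, and Chrna3 had at least 18 reads in every mouse. Among the sham mice, sham mouse 2 was the lowest in habenular markers, Calb2, and Slc17a6, while its habenular value was the median of the 9 mice.

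**Figure D4:**
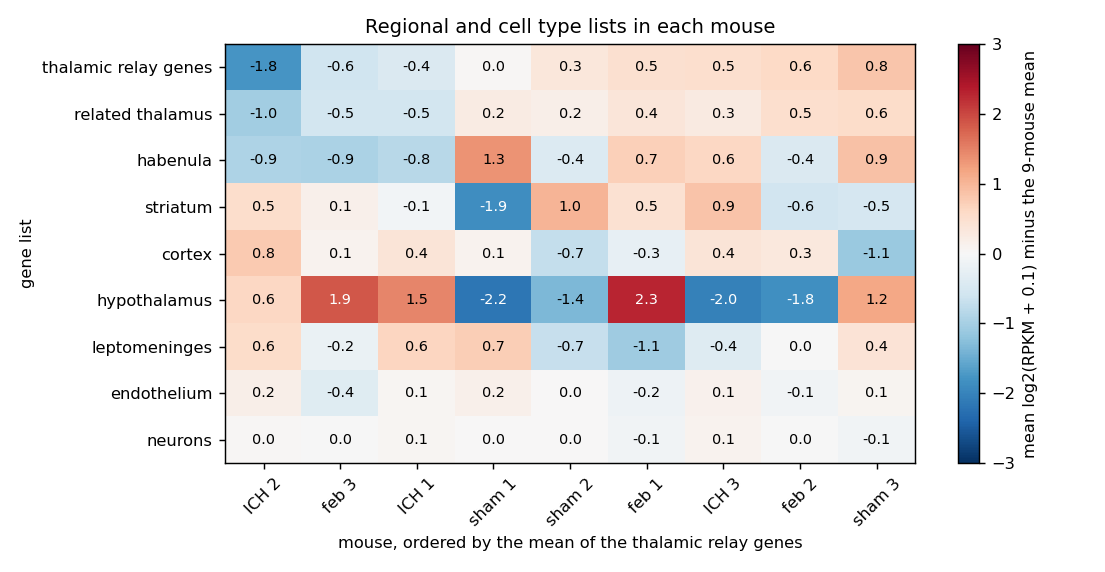
Mean log2(RPKM + 0.1) of each gene list in each mouse, as the difference from the mean of the 9 mice, with mice ordered by the thalamic relay genes. The related thalamic list runs in a similar order from ICH mouse 2 to sham mouse 3, and the habenular list follows it in part (Pearson r 0.62 with the relay genes). The striatal, hypothalamic, and endothelial lists do not follow this order.

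Lists for other sources of the 10 genes gave the following values. Pan-neuronal genes (Rbfox3, Snap25, Syt1, Tubb3, and Map2) summed to between 530 and 608 RPKM in the 9 mice, a narrow range, with 0 of 5 called in each comparison. Between ICH and sham, 2 of 5 had an unadjusted p under 0.05 by limma, against 12.3% of all genes. These were Rbfox3 (log2 fold change 0.32) and Syt1 (0.29), each with an adjusted p of 0.391. In both, all ICH mice lay above all sham mice, and in Tubb3 (-0.43, adjusted p = 0.408) all lay below. The groups overlapped in Snap25 and Map2, and 19.4% of all genes showed no overlap. Endothelial genes (Cldn5, Flt1, Pecam1, Ly6c1, Slco1c1, and Itm2a), listed because Plekhg1 is also vascular, ranged over 0.55 on the log2 scale, with 0 of 6 called. In feb mice, 4 of 6 (Flt1, Pecam1, Slco1c1, and Itm2a) lay below all ICH and all sham mice with an unadjusted p under 0.05, from -0.29 for Flt1 to -0.75 for Itm2a against ICH (adjusted p = 0.387 and 0.213) and from -0.24 to -0.52 against sham (adjusted p = 0.585 and 0.565). Of all genes, 17.2% did not overlap between feb and ICH and 12.7% between feb and sham, in either direction. An unadjusted p under 0.05 was reached by 11.1% and 8.54%. The share of all genes that met both conditions against both groups was not computed. Leptomeningeal genes (Col1a1, Col1a2, Dcn, Lum, Slc6a13, and Aldh1a2), listed because of Zic1, had 1 of 6 called, Col1a1, lower in feb than in sham mice (log2 fold change -1.10, standard error 0.44, adjusted p = 0.580). Cerebellar genes (Pcp2, Gabra6, Cbln3, Car8, and Ppp1r17), listed because of Rora and Zic1, had 0 of 3 tested genes called, but Gabra6 and Cbln3 were 0.748 and 1.63 RPKM in sham mouse 1 and at most 0.0152 and 0.0918 in the other mice. Without sham mouse 1, 0 of 10 thalamic genes were called between ICH and sham, with a median log2 fold change of -1.07. Choroid plexus genes (Ttr, Kl, Folr1, Clic6, Aqp1, Kcne2, and Sostdc1) were called lower in feb mice, 7 of 7 against ICH (the largest log2 fold changes being -3.92 for Ttr, -3.27 for Kcne2, -2.92 for Folr1, and -2.24 for Aqp1) and 6 of 7 against sham, and did not follow the thalamic order (Pearson r -0.33, Spearman rho -0.38).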

How the data were processed

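Brain RNA of 9 mice was sequenced from rRNA-depleted libraries with UMIs. Per the labels and the methods, the authors trimmed reads with Trimmomatic 0.36, collapsed them by UMI, mapped them to the GRCm38 genome, used featureCounts (Subread 1.5.1) for counting, and deposited RPKM values. The reads behind the RPKM were recovered from the value of 1 read in each sample, with at least 99.8% of values within 0.01 of a whole read.

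Here log2(RPKM + 0.1) was, for genes at 0.1 RPKM or more in 3 or more samples, tested with limma 3.58.1 (R 4.3.3; eBayes with trend) with all 9 samples in 1 fit and no block. The test was tried on simulated data first. The authors used edgeR, which needs counts and was not used on RPKM. Within-group pairs of samples differed by a chi-square per gene of at least 12.7, so none was a copy. The 10 genes, the lists, and the tests were chosen with earlier results of these data known. Named genes were the 10 members, called genes of each list (at most 4, by the size of the change), and the 5 genes most and least correlated with the mean of the members. Gene positions are those of the deposited file, and 9 of 10 spans equal those of GENCODE M21. Promoters are from RefSeq. The cortical and striatal lists were each run without 1 planned gene, which is not reported here. The alternatives were another pseudocount, filter, scaling, variance prior, or set of samples, the replicate block, p without the fold change, voom, and each mouse left out.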

Additional observations from a re-analysis of the deposited data

How the results depend on the processing

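Under 20 alternatives to the settings above, the number of thalamic genes called was 0 in all 3 comparisons except as follows. Between ICH and sham it was 1 with equal medians (Slc17a6), 2 with voom on recovered reads (Tnnt1 and Slc17a6), and 0 to 9 with 1 mouse left out, the values above 0 being 1 without sham mouse 2 and 9 without ICH mouse 3. Between feb and ICH it was 0 to 6 with 1 mouse left out, 6 being without ICH mouse 3. Adjusted p-values of the 10 genes stayed at 0.244 to 0.981 between ICH and sham, 0.372 to 0.995 between feb and ICH, and 0.492 to 1 between feb and sham. All 10 log2 fold changes between ICH and sham kept their sign. Between feb and sham, Prkcd turned to -0.0268 with equal medians and Calb2 to 0.0373 with quantile normalization. With 1 mouse left out, Rgs16 ranged from -0.39 to 0.77 and Zic1 from -0.0704 to 1.04 between feb and ICH. Between feb and sham the ranges were -0.39 to 0.46 for Prkcd, -0.42 to 0.0863 for Rora, -0.32 to 0.32 for Plekhg1, -1.04 to 0.18 for Tnnt1, -0.60 to 0.19 for Ramp3, -0.63 to 0.0176 for Slc17a6, -0.56 to 0.26 for Gbx2, and -0.49 to 0.31 for Calb2. The causes of the changes with scaling were not tested. Over all genes, the numbers called (735, 706, and 639) became 158, 128, and 91 with a pseudocount of 1, 346, 287, and 263 among genes at 1 RPKM or more, and 3570, 3212, and 2478 without the fold change criterion. With voom they were 929, 804, and 805. Without sham mouse 2 they became 1299 against ICH and 1150 against feb, and without feb mouse 2 1030 between feb and sham. Equal medians moved the median log2 fold change of all genes from 0.08 to -0.0272 between ICH and sham and from 0.05 to -0.0565 between feb and sham. Same-numbered mice did not deviate together (correlations of -0.127 to 0.0194). Differently numbered mice gave a similar range (-0.121 to 0.166), so with 3 mice per group these values cannot decide whether the numbers pair the samples. With the replicate block, 0, 0, and 0 of the 10 genes were called, and 717, 684, and 615 of all genes.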

Other observations

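Hypothalamic genes (Hcrt, Pmch, Oxt, Avp, Agrp, Pomc, Sim1, and Otp), from the region below the thalamus, varied between mice in another order than the thalamic genes. Oxt and Pmch are named here after their values were seen. Oxt encodes oxytocin, and the sham mice measured 0, 2.64, and 7.09 RPKM, the ICH mice 56.1, 29.9, and 3.48, and the feb mice 55.7, 0.0738, and 39.4. Pmch encodes melanin-concentrating hormone, and sham animals gave 0.633, 1.02, and 61.4 RPKM, ICH animals 44.8, 10.2, and 0.408, and feb animals 84.6, 5.82, and 59.1. The mean log2 value of the list had a Pearson r of -0.30 and a Spearman rho of -0.22 with that of the thalamic genes over the 9 mice. ICH mouse 1 and feb mouse 3, both low in thalamic genes, were high in Oxt and Pmch, and ICH mouse 3 and feb mouse 2, both high in thalamic genes, were low in them. Other mice broke this pattern. Feb mouse 1 was high in thalamic genes and also in Oxt (55.7 RPKM) and Pmch (84.6). Sham mouse 3, with the highest thalamic mean, had 61.4 RPKM of Pmch, and ICH mouse 2, with the lowest, had 10.2. Agrp, a feeding peptide of the arcuate nucleus, was called higher in feb than in ICH mice (log2 fold change 2.32, standard error 0.48, adjusted p = 0.219) and than in sham mice (1.57, standard error 0.48, adjusted p = 0.565), the 1 gene of 8 called in each, and 0 of 8 were called between ICH and sham.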
